A study of Mus musculus with 2 samples.

Results

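The DNA replication and S-phase genes are a list of 45 genes that a dividing cell uses to license and fire replication origins, copy its DNA and rebuild chromatin on the copy. They were chosen by name and not by a cutoff on measured values, though with earlier results of these data known. All 45 were found among the 20211 gene symbols of the expression tables. RNA was sequenced from primary perivascular cells (PCs) of the aorta of C57BL/6 mice, with 1 library from wild type (WT) PCs and 1 from PCs of mice that lack Kai1 (Kai1-/-, labelled Kai1 KO), the gene Cd82 for the tetraspanin KAI1. Both cultures were grown in DMEM with fetal bovine serum and no treatment is given for either. The study's methods describe adult mice of either sex. How the Kai1 knockout allele was made and how many animals or passages stand behind each library are not given in the sources used here. The values are RPKM, read counts corrected for transcript length and for the number of mapped reads, so levels can be compared between genes within a library. They sum to 884463 in the WT and 1238190 in the Kai1-/- library, so ratios between the libraries depend on how these are scaled.

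DNA replication is prepared in G1, when the origin recognition complex, CDC6 and CDT1 load rings of the MCM helicase onto origins. In S phase cyclin-dependent kinases and their partners turn these rings into active helicases by adding CDC45 and GINS, after which polymerases, a sliding clamp and its loader copy both strands. Many of these genes are targets of E2F transcription factors, which the retinoblastoma family restrains in resting cells, and vascular mural cells in the adult vessel wall are known to divide rarely. In bulk libraries such as these, fewer cells in S phase and less RNA per cell cannot be told apart.

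With 1 library per genotype, a difference between the libraries has no replicate check. Genotype, animal, sex, culture density, passage and library preparation cannot be told apart. Ratios are of Kai1-/- over WT on the log2(RPKM + 0.1) scale, where low genes come out with too small a change, and a gene was kept if its 2 values averaged 1 RPKM or more, which held for 10068 genes. A gene is called higher or lower here when this ratio is past 2-fold. Folds, counting intervals and differences between the subunits of a complex were computed from the RPKM without the added 0.1, so they can differ slightly from the log2 ratios beside them. From the steps between low RPKM values the WT library was estimated at 29500000 reads and the Kai1-/- library at 26600000, and 95% intervals from these reads (exact Clopper-Pearson) cover counting error only. Cd82 itself stood at 12.8 RPKM in the WT and 2.62 in the Kai1-/- library. The mural markers Pdgfrb, Cspg4, Acta2 and Tagln were present in both libraries, while Rgs5 stayed at or below an RPKM of 0.233. Rgs5, Des, Notch3 and Anpep fell below the filter, with log2 ratios of 1.03, -1.93, -0.97 and -0.86. All 7 mural markers kept had a log2 ratio below 0. Of these 4 were lower in the Kai1-/- library, beside 7.81% of all genes kept. Mcam at 4.90 and 0.264 and Myh11 at 2.96 and 0.346 were farthest apart. The 8 endothelial markers summed to 1.28 RPKM in the WT and 0 in the Kai1-/- library, and the 7 epithelial markers to 0.801 and 1.03. The 8 macrophage and leukocyte markers summed to 16.4 and 4.23, with Emr1, C1qa and Aif1 at 0 in both libraries. Both of those kept were lower in the Kai1-/- library, Csf1r at 11.7 and 2.66 and Lyz2 at 3.44 and 1.09. All 4 Y-linked genes looked up (Ddx3y, Eif2s3y, Kdm5d and Uty) were listed at 0 in the Kai1-/- library and had an RPKM from 0.479 to 6.56 in the WT library. RNA of male cells was thus seen in the WT library only, so sex goes with genotype in every ratio. The 5 fibroblast markers, of which 2 of 4 kept were lower in the Kai1-/- library, summed to 1761 and 919. The part of these differences in the results below was not tested.

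The promoters of the members were read first. The list was not chosen by promoter sequence, but it holds E2F genes and many known E2F targets. The share with E2F words is therefore not independent of that choice. No background matched for base composition was used. RefSeq promoters of GRCm38.p6, from 250 bases before to 50 bases after the start site, were matched for 37 of the 45 members, and Mcm4, Gmnn, Gins1, Gins2, Prim2, Pole, Rfc2 and Ccne2 had no entry. An E2F site was searched as 4 words, TTTCGCGC, TTTGGCGC, TTTCCCGC and TTTGCCGC, on both strands, where 2 words on opposite strands can overlap. At least 1 of these words was present in 16 of the 37 members, or 43.2%, against 2.61% of 27025 symbols with a promoter and 4.997% of 7644 kept genes with one. Among MCM and licensing genes Mcm3, Mcm5, Mcm6, Mcm7, Orc1, Cdc6 and Cdt1 held a match, and Mcm2, Mcm10 and Orc6 did not. The other members with a match were Gins3, Pola1, Pold1, Pole2, Rfc3, Lig1, E2f2, Uhrf1 and Dnmt1. Among the 26 matched members that were over 2-fold higher in the Kai1-/- library 12 held a match, and among the 11 others 4 did. The members without a match included some with the highest ratios, Rfc4, Cdc45, Dut and Tk1, and some with the lowest, Ccne1, E2f1 and Rrm2. The lack of a match says only that these letters are not in this window. The CCAAT box (CCAAT) was present in 59.5% of the members, 41.1% of all symbols and 42.9% of kept genes. The word TTTGAA of the cell cycle homology region (CHR), known from genes of late cycle, was present in 16.2% of the members, 20.2% of all symbols and 13.5% of kept genes.

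The 160 bases before the start site are shown for 5 members with a match there, with the E2F words in capitals. Mcm5 and Mcm6 are the ring subunits with the highest and the lowest ratio, Orc1 and Cdc6 load the ring, and Rfc3 is a clamp loader subunit. They lie at chr8:75109349-75109508 on the plus strand (Mcm5), chr1:128359706-128359865 on the minus strand (Mcm6), chr4:108579294-108579453 on the plus strand (Orc1), chr11:98907991-98908150 on the plus strand (Cdc6) and chr5:151651209-151651368 on the minus strand (Rfc3).
Mcm5: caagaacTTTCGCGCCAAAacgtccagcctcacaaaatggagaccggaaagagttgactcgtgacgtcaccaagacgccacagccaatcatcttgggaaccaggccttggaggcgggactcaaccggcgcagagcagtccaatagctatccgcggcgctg
Mcm6: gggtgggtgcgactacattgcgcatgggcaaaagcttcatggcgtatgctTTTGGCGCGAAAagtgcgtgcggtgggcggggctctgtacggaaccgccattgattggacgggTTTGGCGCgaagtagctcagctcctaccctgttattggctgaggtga
Orc1: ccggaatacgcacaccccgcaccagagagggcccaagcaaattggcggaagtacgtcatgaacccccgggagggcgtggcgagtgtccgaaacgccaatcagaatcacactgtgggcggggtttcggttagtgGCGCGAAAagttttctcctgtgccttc
Cdc6: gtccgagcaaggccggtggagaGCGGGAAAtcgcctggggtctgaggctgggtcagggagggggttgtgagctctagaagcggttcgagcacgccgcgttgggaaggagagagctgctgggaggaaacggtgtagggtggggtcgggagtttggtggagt
Rfc3: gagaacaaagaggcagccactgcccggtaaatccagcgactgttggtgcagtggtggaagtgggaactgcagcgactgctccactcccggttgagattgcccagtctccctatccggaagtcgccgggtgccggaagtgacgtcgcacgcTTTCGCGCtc

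In Mcm5 a word on the plus strand, 153 bases before the start, overlaps another on the minus strand. In Mcm6 such an overlapping pair stands 110 bases before the start and a single word 47 bases before it. The ring subunits with the highest and the lowest ratio thus both held overlapping E2F words.

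**Figure D1:**
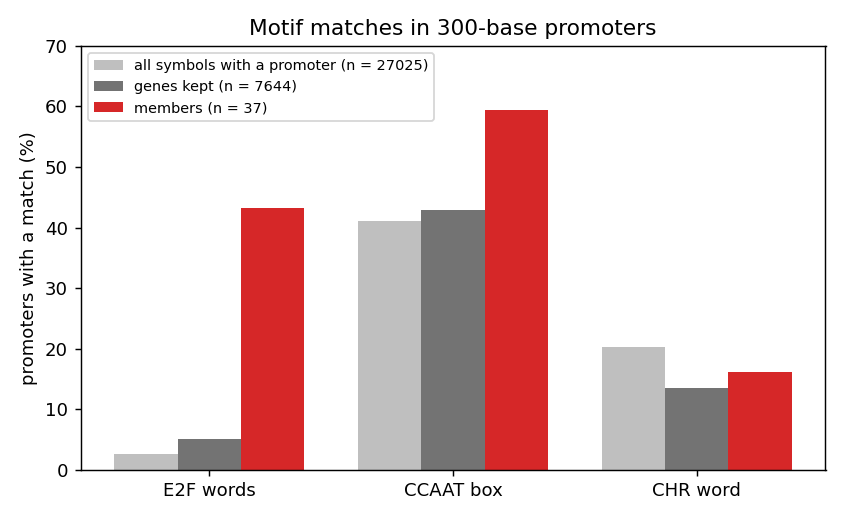
Share of promoters (%) with at least 1 match to the E2F words, the CCAAT box or the CHR word, for all symbols with a promoter (light grey), kept genes (dark grey) and members (red). The E2F bar of the members stands at 43.2%, against 2.61% and 4.997%, while the CHR bars lie between 13.5% and 20.2%.

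As a list, the members were higher in Kai1-/- PCs. Of the 44 members kept, 31 were more than 2-fold higher (70.5%), against 7.98% of all genes kept, and 0 were more than 2-fold lower, against 7.81%. The median log2 ratio of the members was 1.21, with a range from -0.23 to 2.12 and an interquartile range from 0.89 to 1.51, against a median of 0.08 and an interquartile range from -0.35 to 0.50 over all genes kept. Among the 2267 kept genes with a mean RPKM in the interquartile range of the members' levels, 6.84% were higher and the median was 0.11. The summed RPKM of the 45 members was 717 in WT and 1558 in Kai1-/- PCs, or 2.17-fold. Scaling mattered for the count: scaled to Gapdh, whose RPKM was 4238 in WT and 5997 in Kai1-/- PCs, 13 of 44 members and 2.76% of all genes were higher, and scaled to the same sum of RPKM 14 of 44 and 2.84%. The median of all genes moved to -0.41 and -0.39 under these scalings, and the members' median stayed 1.12 above it in both, beside 1.13 with the values as deposited. In each of these scalings 42 of 44 members were above the median of all genes.

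**Figure D2:**
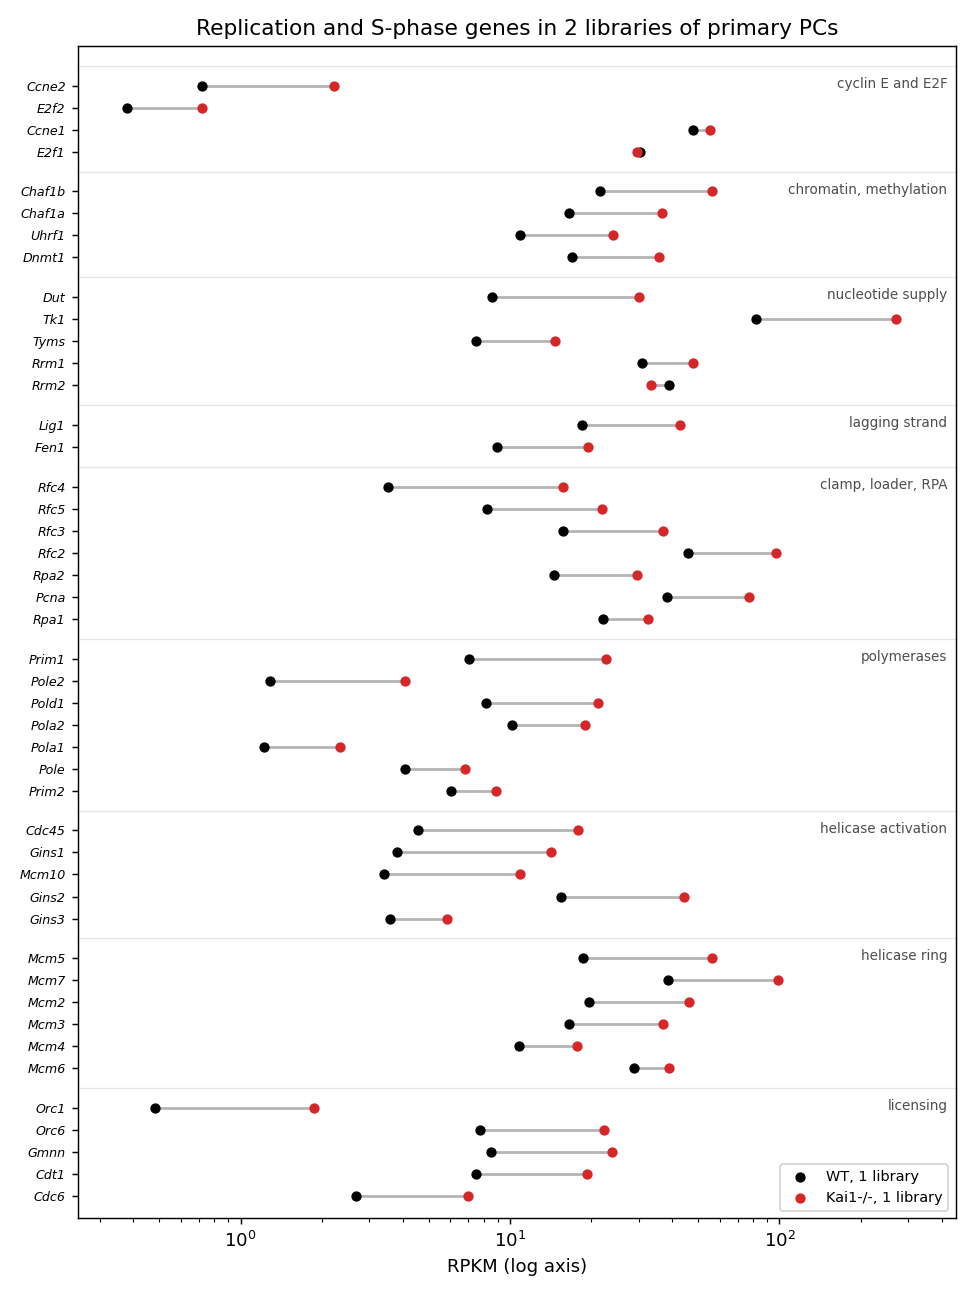
RPKM (log axis) of the 45 members in the WT library (black) and the Kai1-/- library (red), 1 point per gene and library, grouped by role. The red point lies to the right of the black point for every gene except E2f1 and Rrm2, and scaling to Gapdh or to the same sum of RPKM would turn the order for Ccne1 and Mcm6 as well.

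Levels differed widely among the members. In WT PCs the RPKM ran from 0.379 for E2f2 to 81.7 for Tk1, with a median of 10.2, and 33 of 45 members reached 5. In Kai1-/- PCs it ran from 0.717 for E2f2 to 271 for Tk1, with a median of 23.96, and 40 of 45 members reached 5. The median over the kept genes was 8.45 in WT and 8.82 in Kai1-/- PCs. The order of the members was much the same in both libraries, with a Pearson correlation of 0.947 and a Spearman correlation of 0.927 of log2 RPKM over the 44 members kept, which share libraries and transcript lengths. Members with a high WT level tended to have a smaller ratio (Pearson r = -0.41, Spearman rho = -0.42), a relation that the WT value enters on both sides. Tk1 ranked number 1 in both libraries. Rrm2 moved from number 4 in WT to number 17 in Kai1-/- PCs, E2f1 from number 8 to number 20 and Ccne1 from number 2 to number 7.

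Licensing factors mark and load origins. All 5 were higher in Kai1-/- PCs, by log2 ratios from 1.36 to 1.77. Orc1, the subunit of the origin recognition complex (ORC) whose amount is known to vary through the cycle, stood at 0.480 RPKM in WT and 1.88 in Kai1-/- PCs (log2 ratio 1.77, counting interval 1.54 to 2.43, about 55 and 195 reads). Orc6, another ORC subunit, went from 7.74 to 22.2. Cdc6, the ATPase that joins ORC at the origin, went from 2.67 to 7.01, a log2 ratio of 1.36. Cdt1, which brings the MCM ring, and Gmnn, which encodes its inhibitor geminin, act against each other and were compared as a pair. Cdt1 went from 7.47 to 19.4 and Gmnn from 8.50 to 23.96. Their ratios differed by 0.12, with a 95% counting interval from -0.15 to 0.39, so a difference between them was not detectable at this depth.

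The MCM2-7 ring is the core of the replicative helicase and holds 1 copy of each of 6 related subunits. All 6 genes had a ratio above 0, and 4 passed 2-fold. Mcm5 went from 18.7 RPKM in WT to 56.1 in Kai1-/- PCs (log2 ratio 1.58), Mcm7 from 38.6 to 99.0 (1.36, counting interval 1.30 to 1.42) and Mcm2 from 19.7 to 46.2 (1.23). Mcm3 went from 16.5 to 36.9 (1.16), while Mcm4 went from 10.8 to 17.7 (0.71) and Mcm6 from 28.8 to 38.8 (0.43). The subunits thus differed among themselves. The ratio of Mcm5, the highest, exceeded that of Mcm6, the lowest, by 1.16 on the log2 scale, with a counting interval from 1.06 to 1.26. The interval does not allow for this choice of pair. The difference does not depend on how the libraries are scaled. Mcm6 made up 21.7% of the summed RPKM of the ring in WT and 13.2% in Kai1-/- PCs, and Mcm5 14.0% and 19.0%. The most abundant subunit exceeded the least abundant by 3.58-fold in WT and 5.59-fold in Kai1-/- PCs. Under scaling to Gapdh or to the same sum, Mcm6 was lower rather than higher in the Kai1-/- library, with a log2 ratio as low as -0.07.

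Helicase activators turn the loaded ring into a moving helicase. Of 5 genes, 4 were higher. Cdc45, which joins the ring at firing, went from 4.57 to 17.9 (log2 ratio 1.94, 95% counting interval 1.77 to 2.17, about 262 and 925 reads). Mcm10, needed for the step from loaded to active helicase, went from 3.41 to 10.8 (1.64). These are among the members with larger ratios, and 1.02% of all genes kept had a higher ratio than Cdc45. The GINS complex has 4 subunits, of which 3 are members. Gins1 went from 3.82 to 14.2 (1.87, counting interval 1.57 to 2.23), Gins2 from 15.5 to 44.3 (1.51) and Gins3 from 3.59 to 5.84 (0.69). Gins1 exceeded Gins3 by 1.19, with a counting interval from 0.79 to 1.60. The exons annotated for Gins2 share 2758 bases with Gse1 on the other strand, whose log2 ratio was 0.10, so the reads of Gins2 are uncertain.

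Replicative polymerases start and extend the new strands. Of 7 genes, 3 were higher, and the other 4 had log2 ratios from 0.55 to 0.89. In the polymerase alpha-primase complex, which lays the primers, the small primase subunit gene Prim1 went from 7.03 to 22.6 (1.67) and the large primase subunit gene Prim2 from 6.03 to 8.90 (0.55). The difference between these partners was 1.13, with a counting interval from 0.84 to 1.41. Pola1, the catalytic subunit, went from 1.23 to 2.34 and Pola2 from 10.2 to 19.0, both short of 2-fold at 0.88 and 0.89. Pold1, the catalytic subunit of polymerase delta, which copies the lagging strand, went from 8.14 to 21.2 (1.37). Pole, the catalytic subunit of polymerase epsilon on the leading strand, went from 4.09 to 6.81 (0.72), and its partner Pole2 from 1.29 to 4.08 (1.59), the latter from about 57 and 163 reads.

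PCNA is the sliding clamp that holds polymerases on DNA, RFC loads it, and RPA covers single strands. Of these 7 genes, 6 were higher. Rfc4 had the highest ratio of all members, from 3.53 in WT to 15.7 in Kai1-/- PCs, or 4.45-fold without the added 0.1 (log2 ratio with it 2.12, counting interval 1.85 to 2.46, about 113 and 452 reads). Rfc5 went from 8.20 to 22.01 (1.41), Rfc3 from 15.7 to 36.8 (1.22) and Rfc2 from 45.7 to 96.8 (1.08, counting interval 1.002 to 1.17). Within the loader Rfc2 remained the most abundant RNA, with 57.1% of the summed RPKM of Rfc1 to Rfc5 in WT and 54.2% in Kai1-/- PCs, whereas Rfc4 made up 4.42% and 8.80%. The annotated exons of Rfc4 share 194 bases with Eif4a2 on the other strand, whose log2 ratio was 0.99. Pcna went from 38.2 to 77.1, or 2.02-fold, just past the 2-fold line (1.01, counting interval 0.92 to 1.11). Its value is uncertain in another way, since the annotation names the pseudogenes Pcna-ps1 and Pcna-ps2. Rpa2 went from 14.5 to 29.7 (1.03) and Rpa1, the large RPA subunit, from 22.2 to 32.5 (0.55). Pcna and Rpa2 fell short of 2-fold with a pseudocount of 1 RPKM and in each of the 4 other scalings.

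On the lagging strand FEN1 trims the flap of each Okazaki fragment and LIG1 seals the nick. Both genes were higher. Fen1 went from 8.97 to 19.5 (1.11) and Lig1 from 18.5 to 42.8 (1.202). Much of the annotated Fen1 sequence, 1909 bases of exon, also belongs to Gm10143 on the other strand.

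**Figure D3:**
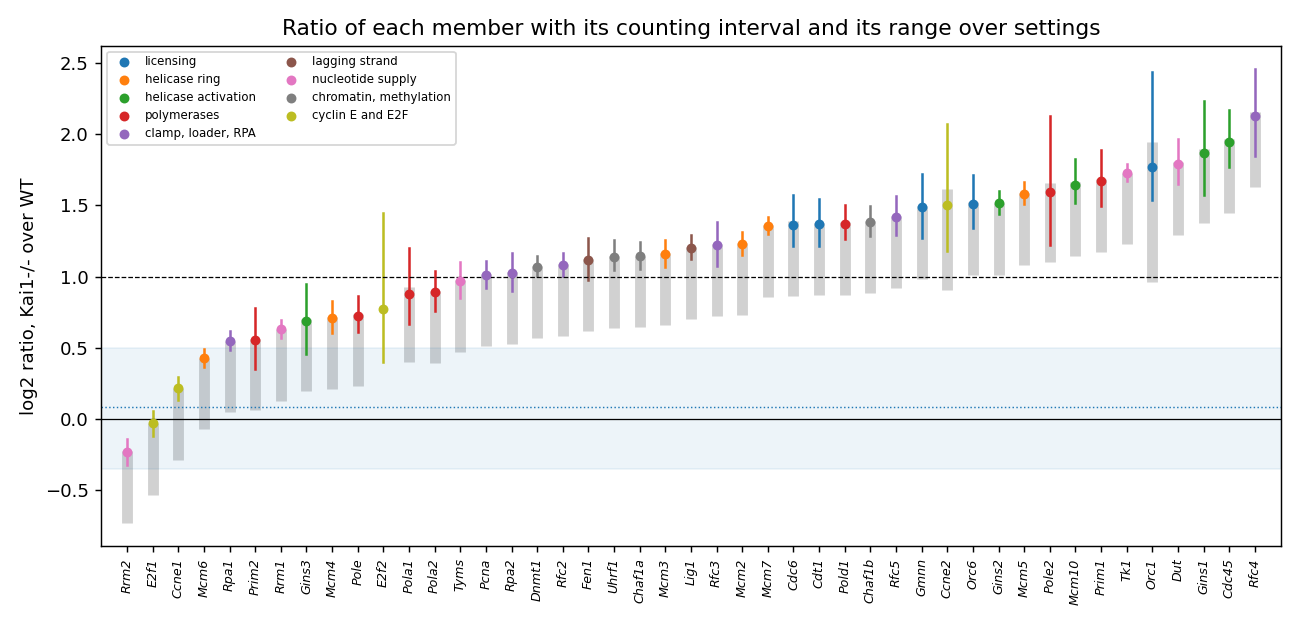
Log2 ratio of Kai1-/- to WT for the 45 members in rising order, coloured by role, with the 95% interval from estimated reads (thin line, computed without the pseudocount) and the range over the values as deposited and up to 9 alternatives (grey bar, and for E2f2, below the filter, 1 setting). The blue band is the interquartile range of all genes kept, from -0.35 to 0.50, with the median dotted at 0.08, and 31 points lie above the dashed 2-fold line.

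Nucleotide supply split. Thymidine kinase 1 (Tk1), a salvage enzyme made in S phase, was the most abundant member and went from 81.7 RPKM in WT to 271 in Kai1-/- PCs, or 3.32-fold (log2 ratio 1.73, counting interval 1.67 to 1.79). Dut, whose enzyme keeps uracil out of DNA, went from 8.60 to 30.004 (1.79, counting interval 1.65 to 1.962). Tyms, which makes thymidylate anew, went from 7.46 to 14.7, just short of 2-fold (0.97). Ribonucleotide reductase makes the deoxyribonucleotides, with Rrm1 as its large and Rrm2 as its S-phase small subunit. Rrm1 went from 30.8 to 47.7 (0.63, counting interval 0.57 to 0.69), whereas Rrm2 went from 39.0 to 33.3 (-0.23, counting interval -0.32 to -0.14). Rrm2 thus had the lowest ratio of all members, and 69.0% of all genes kept had a higher one. With Rrm2b, the small subunit known as a p53 target, included, Rrm2 made up 55.2% of the summed RPKM of the reductase genes in WT and 40.3% in Kai1-/- PCs. Rrm2 stayed below 0 in all 10 settings, from -0.73 to -0.22.

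Cyclin E and the activating E2F factors drive the entry into S phase, and their genes were split. Of the 3 genes kept, 1 was higher. Ccne1 stood at 47.7 RPKM in WT and 55.4 in Kai1-/- PCs (log2 ratio 0.22, counting interval 0.14 to 0.30), and its sign turned under scaling to Gapdh and to the same sum, at -0.28 and -0.27. Its paralogue Ccne2 went from 0.719 to 2.22 (1.501), from about 60 and 166 reads. In both libraries Ccne1 supplied nearly all cyclin E RNA, with 98.5% and 96.2% of the summed RPKM. E2f1 stood at 30.3 RPKM in WT and 29.7 in Kai1-/- PCs (-0.03, counting interval -0.12 to 0.06), so no difference was detectable within counting error on the scale as deposited, and it was -0.53 under scaling to Gapdh. E2f2 lay below the filter at 0.379 and 0.717 (0.77, counting interval 0.40 to 1.45).

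The genes that copy chromatin and DNA methylation behind the fork were all higher, 4 of 4. Chaf1b, a subunit of chromatin assembly factor 1, which places histones on new DNA, went from 21.5 to 56.3 (1.39), and its partner Chaf1a from 16.6 to 36.7 (1.14). Uhrf1, which finds sites methylated on 1 strand, went from 10.9 to 24.1 (1.14). Dnmt1, the maintenance methyltransferase, went from 17.0 to 35.8 (1.07). Chaf1a and Uhrf1 lie near each other on chromosome 17, from 56179827 to 56206973 and from 56442744 to 56462909 of NCBI37, the build of mm9. In all, the members are spread over 16 chromosomes.

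Subunits of the same complexes that are not on the list were looked up to complete the picture. ORC holds 6 subunits, and its genes ran from 0.01 for Orc3 to 2.19 for Orc4. Without the added 0.1, which weighs on low genes such as Orc4, they differed by 2.33, with a counting interval from 1.81 to 2.85. RFC ran from 0.10 for Rfc1, the large subunit, to 2.12 for Rfc4, and without the added 0.1 they differed by 2.06, with an interval from 1.73 to 2.38. In polymerase delta Pold4 stood at 142 RPKM in WT and 111 in Kai1-/- PCs (-0.35), while Pold2 went from 16.8 to 56.2 (1.74). RPA ran from 0.55 for Rpa1 to 2.26 for Rpa3, the latter from about 23 reads in WT PCs. Each of these pairs was picked as the highest and lowest of its complex, as were Mcm5 and Mcm6, Gins1 and Gins3, and Prim1 and Prim2 above. The intervals do not allow for that choice or for any difference between cultures.

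**Figure D4:**
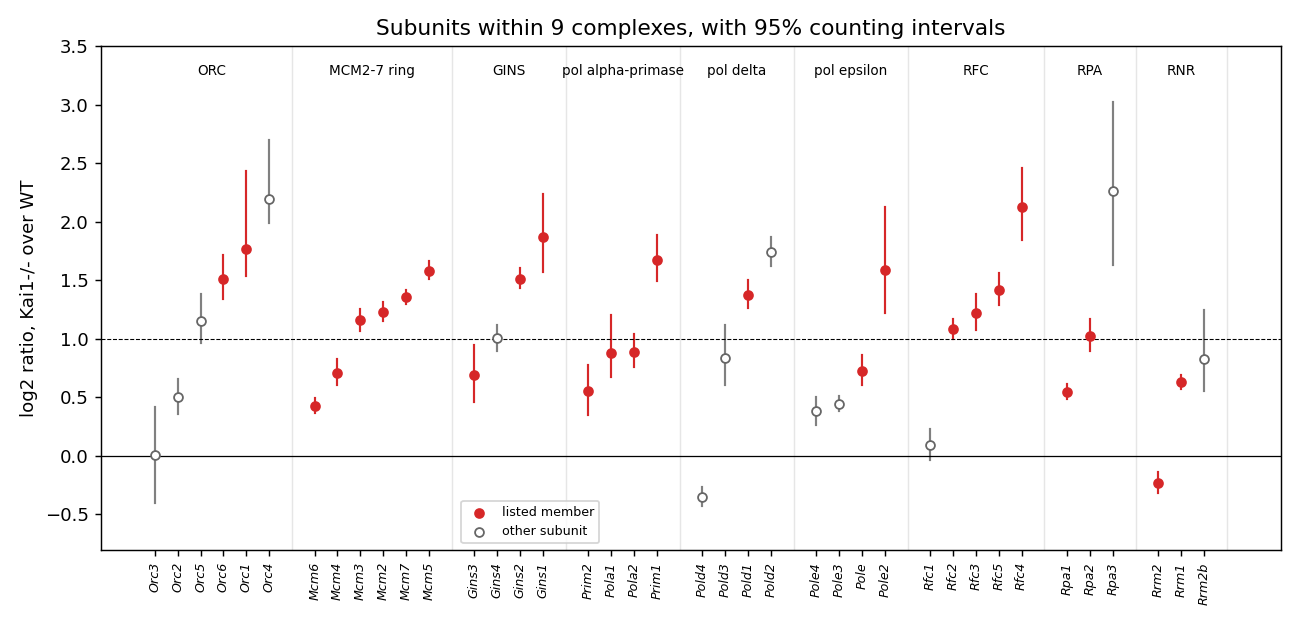
Log2 ratio of Kai1-/- to WT of the subunits of 9 complexes, with 95% counting intervals (RNR, ribonucleotide reductase; red, listed members; open, other subunits; the dashed line marks 2-fold). Subunits of 1 complex do not share a level, as from Mcm6 at 0.43 to Mcm5 at 1.58 in the MCM2-7 ring.

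A wider list of 41 replication genes outside the members, also chosen with earlier results of these data known, moved in the same direction. Of 38 genes kept, 16 were higher (42.1%) and 0 lower, with a median log2 ratio of 0.86 and a range from -0.35 to 2.26, beside the 7.98% of all genes called higher. The highest were Rpa3 (2.26), Orc4 (2.19) and Asf1b (2.19), a histone chaperone, which went from 5.34 to 24.7. The lowest were Pold4 (-0.35), Orc3 (0.01) and Rfc1 (0.10). Scaled to Gapdh or to the same sum of RPKM, 9 of these genes were higher.

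The regulators around S phase gave a mixed picture. Of 15 kept genes among cyclins, CDKs, the other E2F factors and the retinoblastoma family, 3 were higher and 1 lower, with a median of 0.20. The repressor E2f7 (1.98 in WT and 5.76 in Kai1-/- PCs), cyclin A gene Ccna2 (9.92 and 27.5) and Cdk2 (2.69 and 7.10) were higher, and Ccnd2 was lower (188 and 83.1). Next lowest were E2f6 (-0.67) and E2f5 (-0.32). Among the 6 CDK inhibitors kept 2 were higher (33.3%), Cdkn2d (1.69) and Cdkn1b (1.11), and 0 were lower, beside those shares of all genes. Cdkn1c lay below the filter at 0.238 RPKM in WT, from about 12 reads, and 0 in Kai1-/- PCs (-1.76). Cdkn1a (-0.99), Cdkn2b (-0.96) and Cdkn2a (-0.71) fell short of 2-fold, with Cdkn1a at 650 and 327, and Cdkn2c was at 0.57. These counts depend on scaling. Scaling to Gapdh, whose own log2 ratio was 0.50, would take Cdkn1a, Cdkn2b and Cdkn2a past 2-fold lower and Cdkn1b below 2-fold. Of 20 mitosis genes 17 were higher (85.0%) and 0 lower, with a median of 1.39, beside the 7.98% of all genes called higher. Scaling to Gapdh would leave fewer genes higher in this list and among the 15 regulators. In the latter it would take Ccna2 and Cdk2 below 2-fold and E2f6 past 2-fold lower. The cyclin B genes Ccnb2 (2.01) and Ccnb1 (1.92) and Cdk1 (1.85) stood highest, and Kif23 (0.36), Bub1 (0.78) and Tpx2 (0.82) lowest. The members and the mitosis genes were thus high together in the same library, and whether their medians differ was not tested.

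**Figure D5:**
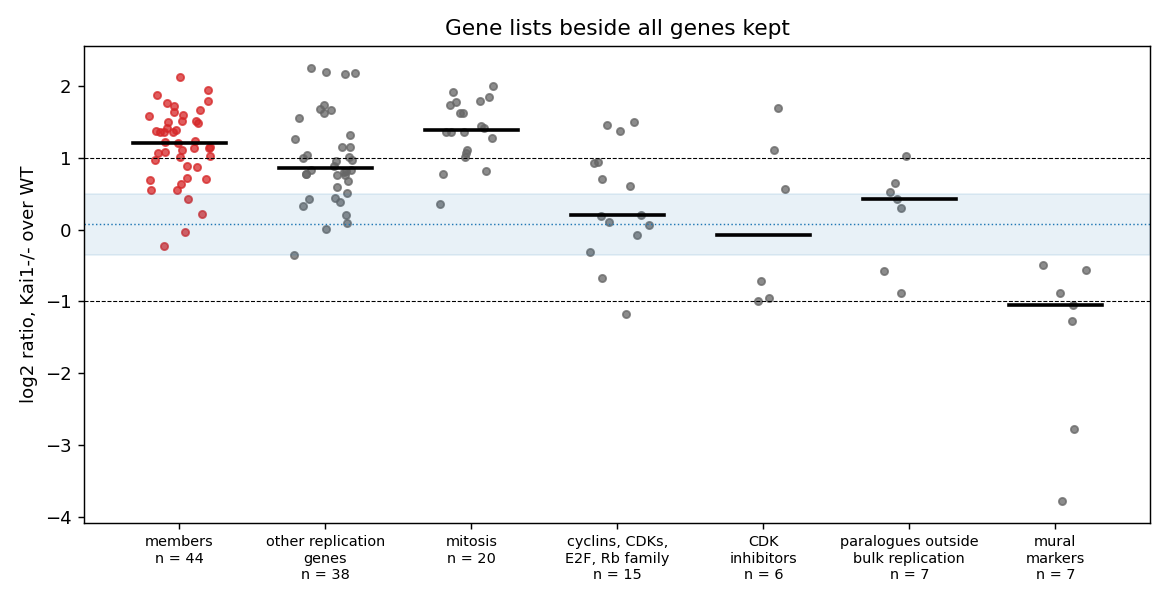
Log2 ratio of Kai1-/- to WT of the kept genes of 7 lists, 1 point per gene with the median as a bar (members red; dashed lines, 2-fold; blue band, interquartile range of all genes kept). Medians were 1.21 for the members, 0.86 for other replication genes, 1.39 for mitosis genes and -1.04 for the mural markers.

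Transcript length and overlap were set beside the ratios. Over the 44 members kept the ratio tended to be smaller for longer transcripts (Pearson r = -0.29, Spearman rho = -0.33, with the longest annotated transcript), beside -0.08 and -0.14 over 9528 kept genes with a length. Of the 22 members with transcripts of up to 2755 bases 16 were higher, with a median of 1.29, and of the 22 longer ones 15 were higher, with a median of 1.18. Kept genes in the same ranges of length had medians of 0.16 and 0.00. Exons of 13 members overlap another annotated gene, mostly on the other strand, and strandedness is not given for these libraries. The miRNA genes Mir25 and Mir93 lie within Mcm7 on its own strand. Of the 31 kept members without such an overlap 20 were higher, with a median of 1.14.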

How the data were processed

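RNA was sequenced from primary PCs of WT and Kai1-/- mice, 1 library each. The deposited RPKM values of RefSeq genes were made by the authors from an alignment by TopHat 2.0.9 and Bowtie on mm9, and the submitters' processing notes also name Cufflinks. The strandedness of the library and the read total are not given in the sources used here.

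Of 20462 rows, 38 had no symbol and were left out, and 153 repeated symbols were averaged. The pseudocount was 0.1 RPKM, the filter a mean RPKM of at least 1 and the call 2-fold, and no p-value was computed, since each genotype has 1 library. Depth was estimated from single-transcript genes longer than 800 bases, with a fragment length of 200 bases. With these steps 76.2% of low values in WT and 76.4% in Kai1-/- PCs came within 0.15 of whole reads. For reads per gene the longest GENCODE M1 transcript (NCBI37) was taken, so they are approximate. The steps and calls were tested on simulated counts made with the same fragment length and read formula, with counting error only. Such a test checks the code and does not cover differences between cultures or libraries.

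The members and lists were chosen with earlier results of these data known. Every member is described. Outside the members, at most the 3 highest and 3 lowest kept genes of each list were named. Also named were Cd82, Gapdh, marker genes, overlapping genes, subunits that complete a complex and some genes below the filter. The last 3 groups were chosen after the values were seen. Promoters came from RefSeq (GRCm38.p6), and their coordinates are of that build. Alternatives were 2 pseudocounts, 4 scalings, 2 filters and another rule for repeated symbols. Python 3.11.15 was used with numpy 2.4.6, pandas 2.3.3, scipy 1.17.1 and matplotlib 3.10.9.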

Additional observations from a re-analysis of the deposited data

How the results depend on the processing

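No paired analysis was possible because WT and Kai1-/- PCs were sequenced in 1 library apiece. The members' median was 1.11 with a pseudocount of 1 RPKM, 1.13 with the median of all genes set to 0, 1.08 with the upper quartile made equal, 0.71 scaled to Gapdh, 0.73 scaled to the same sum of RPKM and 1.18 when only genes of mean RPKM 5 or more were kept. Scaled to Gapdh, 13 members and 9 other replication genes were higher, as were 278 of all genes, with 1856 lower. Scaled to the same sum these counts were 14, 9, 286 and 1816. Without a filter 1205 genes were higher and 1878 lower, whereas the mean RPKM filter of 5 gave 511 and 350, with 10 other replication genes higher. These filters change how many genes are counted. Of 115 recomputed ratios of 13 single members 80 moved by less than the margin on either side of their counting interval and 35 by more. The 2 filters and the rule for repeated symbols could not change these ratios, as each member has 1 row. The 80 include those unchanged ratios, and all 35 came from the pseudocounts and scalings. Of the 44 members kept, 11 were over 2-fold higher in every setting that kept them, and 40 stayed above 0. The estimated depth limits low genes such as Orc1, E2f2, Pole2 and Ccne2, with about 55, 51, 57 and 60 reads in WT PCs.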

Other observations

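Other MCM, DNA polymerase and translesion genes, which work outside bulk replication, were looked up as a separate list. Of 9 such genes 7 were kept, of which 1 was higher and 0 lower, with a median log2 ratio of 0.43 beside 1.21 for the members. Mcm8, a relative of the ring subunits that acts in recombination repair, stood at 2.41 RPKM in WT and 1.27 in Kai1-/- PCs (-0.88). The translesion polymerase genes Polk (-0.58), Polh (0.30) and Poli (1.02) spread to both sides of 0, and the repair polymerase gene Polb (0.65) and the translesion factor gene Rev1 (0.52) lay between. Whether this list differs from the members was not tested.

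Genes whose exons overlap a member on the other strand were also listed. Cops6 beside Mcm7 had a log2 ratio of 0.21, Ap4m1, which shares more bases with Mcm7, 0.84, Ufd1l beside Cdc45 0.22, Wsb2 beside Rfc5 -0.54, Afmid beside Tk1 -0.04, Ints8 beside Ccne2 -0.16 and Ubxn6 beside Chaf1a 0.09. Each of these partners had a lower ratio than its member, as had at least 94.3% of all genes kept. This comparison therefore does not tell whether reads were shared, which was not tested.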
